A study of Mus musculus with 5 samples.

Results

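Cytochrome P450 genes of families 1 to 4 were examined in tunicamycin-treated cells of LRRK2-GS and LRRK2-WT mice. The members were chosen by symbol alone: every probe set of the deposited array table that carried exactly 1 symbol of the form Cyp1 to Cyp4, followed by a subfamily letter and a number, and was not named as a pseudogene. These were 59 probe sets of 57 genes in 21 subfamilies, among 22059 genes with a tested probe set. Family 2 gave 35 of the genes, family 4 gave 16, family 3 gave 4 and family 1 gave 2. Cyp2c55 and Cyp2f2 each had a second probe set, and the brighter one over the 5 arrays stood for the gene. Cyp2d13 was kept by its symbol, although the RefSeq annotation lists it as a transcribed pseudogene.

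By the study's description, the LRRK2-GS cells (3 arrays) were primary astrocytes from cortices of 1-day-old heterozygous FVB mice carrying the G2019S-LRRK2-Tg transgene, and the LRRK2-WT cells (2 arrays) came from wild type-LRRK2-Tg FVB mice, also heterozygous and 1 day old. LRRK2 is a kinase, and the G2019S form is linked to Parkinson's disease. Tunicamycin, which blocks N-linked glycosylation in the endoplasmic reticulum, was given to all cells, at 0.2 μg/ml for 3 h by the sample labels, while the text of the study gives a longer treatment and a figure legend a lower dose. No untreated array was analysed here, so the values compare genotypes and not the response to the drug. Neither the promoter of the transgenes nor whether the arrays stand for separate cultures is given in the sources used here. The p-values set the genotype difference against the spread of these arrays within a genotype, and that spread may be technical variation. The number of arrays limits the precision of every value.

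P450 enzymes are haem proteins, most of them anchored in the membrane of the endoplasmic reticulum, and they insert an oxygen atom into their substrates with electrons from NADPH-P450 reductase and cytochrome b5. Enzymes of families 1 to 3 oxidise drugs, pollutants and steroids and many are switched on by the receptors AHR, CAR and PXR, while family 4 enzymes mostly hydroxylate fatty acids at the end of the chain. Most are known from liver, and in brain a smaller set is found, where some make signalling lipids from arachidonic acid.

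The deposited values are log2 expression values, and a difference is LRRK2-GS minus LRRK2-WT. A probe set's brightness depends on its probes as well as on the RNA, so the level of a gene is given as its position among all 23396 tested probe sets and never as a ratio to another gene. The background was set from olfactory receptor genes, most of which are silent outside the nose: 95% of their 1107 probe sets had a mean under 3.39 (here the olfactory receptor level). The array medians lay between 3.26 and 3.28.

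The label was checked against marker genes first. Of 10 astrocyte markers measured, 6 lay above the olfactory receptor level and 1, Aldh1l1, read above 6.42, the value that 90% of tested probe sets stay under (the 90th percentile), on every array. The water channel gene Aqp4, the gap junction gene Gjb6, S100b and the glutamate transporter gene Slc1a3 lay below the level. Gfap, the intermediate filament gene of astrocytes, averaged 4.16 in LRRK2-GS and 4.05 in LRRK2-WT cells. All 11 hepatocyte markers measured lay above the 90th percentile on every array, and Alb, which encodes serum albumin, averaged 12.61 in LRRK2-GS and 12.66 in LRRK2-WT cells. The measured profile thus went against the label astrocytes, and the cells are called here by their genotype. The study, by contrast, reports that nearly all cultured cells were astrocytes by GFAP immunofluorescence. It also reports high astrocyte purity from array markers of astrocytes, microglia, oligodendrocytes and neurons. The summed value of the hepatocyte markers was 122.4 to 124.7 in LRRK2-GS and 123.8 to 125.0 in LRRK2-WT cells. Markers of macrophages, sinusoidal endothelium and stellate cells lay above the olfactory receptor level in 6 of 6 genes each, those of microglia in 3 of 4, of oligodendrocytes in 1 of 3 and of neurons in 2 of 4. The summed value of the astrocyte markers was 38.9 to 40.5 in LRRK2-GS and 40.4 to 40.5 in LRRK2-WT cells. In such bulk samples, fewer cells of a type and less RNA per cell cannot be told apart.

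The genotypes also differed in genes of the sex chromosomes. Xist, expressed from the inactive X chromosome, averaged 2.57 in LRRK2-GS and 8.29 in LRRK2-WT cells, and the Y-linked gene Eif2s3y averaged 6.41 in LRRK2-GS and 2.17 in LRRK2-WT cells. Genotype and the sex of the source therefore cannot be told apart in any difference below, and many liver P450 genes are known to differ between male and female mice.

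The promoters of 5 members are shown as examples. Cyp2e1, Cyp2c70 and Cyp3a11 were lowest on LRRK2-GS array 1 and highest on LRRK2-GS array 3 within their genotype. Cyp2a12 and Cyp2j5 were higher on all LRRK2-GS arrays. Each promoter is the 250 bases before the gene's start in RefSeq, assembly GRCm38.p6, read 5′ to 3′ on the gene's strand. Capitals mark matches to TATAAA as the TATA box, to CCAAT or to CAAAGTCCA as the HNF4 site, on either strand, so that a TATA box on the other strand reads TTTATA and a CCAAT match reads ATTGG. No pair of matches overlapped in these promoters.
Cyp2e1 (chr7:140763569-140763818, plus strand): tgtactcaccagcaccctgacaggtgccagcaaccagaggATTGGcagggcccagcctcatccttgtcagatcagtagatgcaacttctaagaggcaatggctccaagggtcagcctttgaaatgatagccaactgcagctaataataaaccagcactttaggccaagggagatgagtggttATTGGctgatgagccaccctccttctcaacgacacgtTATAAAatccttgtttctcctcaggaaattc
Cyp2c70 (chr19:40187287-40187536, minus strand): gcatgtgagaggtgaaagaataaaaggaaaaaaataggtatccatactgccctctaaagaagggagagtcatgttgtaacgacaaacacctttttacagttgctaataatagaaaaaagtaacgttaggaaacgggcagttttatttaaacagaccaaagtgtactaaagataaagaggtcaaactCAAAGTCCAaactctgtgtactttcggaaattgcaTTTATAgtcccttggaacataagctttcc
Cyp3a11 (chr5:145879855-145880104, minus strand): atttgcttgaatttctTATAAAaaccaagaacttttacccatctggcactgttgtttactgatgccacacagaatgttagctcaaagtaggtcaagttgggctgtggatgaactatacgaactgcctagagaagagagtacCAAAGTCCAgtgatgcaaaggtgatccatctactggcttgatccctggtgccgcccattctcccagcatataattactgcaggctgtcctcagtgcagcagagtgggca
Cyp2a12 (chr7:27028840-27029089, plus strand): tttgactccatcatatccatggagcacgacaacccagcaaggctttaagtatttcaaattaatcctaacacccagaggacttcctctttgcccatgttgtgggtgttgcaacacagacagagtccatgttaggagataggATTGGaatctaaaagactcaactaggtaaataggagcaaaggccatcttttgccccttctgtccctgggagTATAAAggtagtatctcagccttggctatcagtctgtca
Cyp2j5 (chr4:96664120-96664369, minus strand): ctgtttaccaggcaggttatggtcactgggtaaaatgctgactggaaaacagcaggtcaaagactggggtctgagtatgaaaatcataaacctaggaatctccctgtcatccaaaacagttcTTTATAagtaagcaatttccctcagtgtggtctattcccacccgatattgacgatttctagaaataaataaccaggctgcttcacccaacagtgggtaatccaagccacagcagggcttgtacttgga
The TATA box of Cyp2e1 began 31 bases before the start and that of Cyp2a12 began 39 bases before it. In Cyp2c70 the TATA letters stood on the opposite strand 29 bases before the start. Those of Cyp2j5 also stood on the opposite strand, but 128 bases before the start, and those of Cyp3a11 began 234 bases before it. The HNF4 letters began 64 bases before the start of Cyp2c70 and 109 bases before that of Cyp3a11. Cyp4f15 had the same array order as Cyp2e1, but its promoter is not printed. It held a CCAAT match and no TATA or HNF4 letters, so the 5 shown do not stand for all members.

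RefSeq promoters were found for 46 of the 57 members, 25 of them above the olfactory receptor level. TATAAA was present in 15 of the 46 (32.6%), against 13% of all 27025 promoters of this length. The HNF4 letters, named after a factor of the hepatocyte, were present in Cyp3a11, Cyp2c65, Cyp2c69 and Cyp2c70, which was 8.70% of the members and 0.381% of all promoters. Of these 4, Cyp2c65 lay below the olfactory receptor level. The 3 Cyp2c genes are related copies, so their matches are not independent of each other. The same limit holds for TATAAA, whose matches included Cyp2c55, Cyp2c65, Cyp2c66, Cyp2c29 and Cyp2c70. They also included Cyp2d10, Cyp2d11, Cyp2d26 and Cyp2d40, and Cyp2a5 and Cyp2a12. GTTAAT (HNF1) was present in 10.9% of the members and 6.52% of all promoters, TTCNNNGAA (STAT5) in 8.70% and 7.18%, and CCAAT in 43.5% and 34.5%. TTANGTAA (D box) was found in 0 of the 46 and in 2.11% of all promoters. All were searched on both strands, and a match is a description of the letters and not a site in use. Hnf4a itself, the gene of the factor, averaged 8.83 in LRRK2-GS and 8.77 in LRRK2-WT cells.

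The 57 genes spread over the whole range of the table. Above the olfactory receptor level lay 32 of them (56.1%, against 54.1% of all tested probe sets), and 13 lay above the 90th percentile on every array (22.8%, against 8.33% of all). Family 2 held 20 of the 32 and 11 of the 13, family 3 held 3 and 1, family 4 held 9 and 1, and family 1 held none. The brightest was Cyp2e1, which oxidises ethanol and small solvents, at percentile 99.9. It was followed by Cyp2a12, a steroid and bile acid hydroxylase, also at 99.9, by Cyp2c70, which makes the muricholic acids of mouse bile, at 99.8, and by the arachidonic acid epoxygenase gene Cyp2j5 at 99.4.

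**Figure D1:**
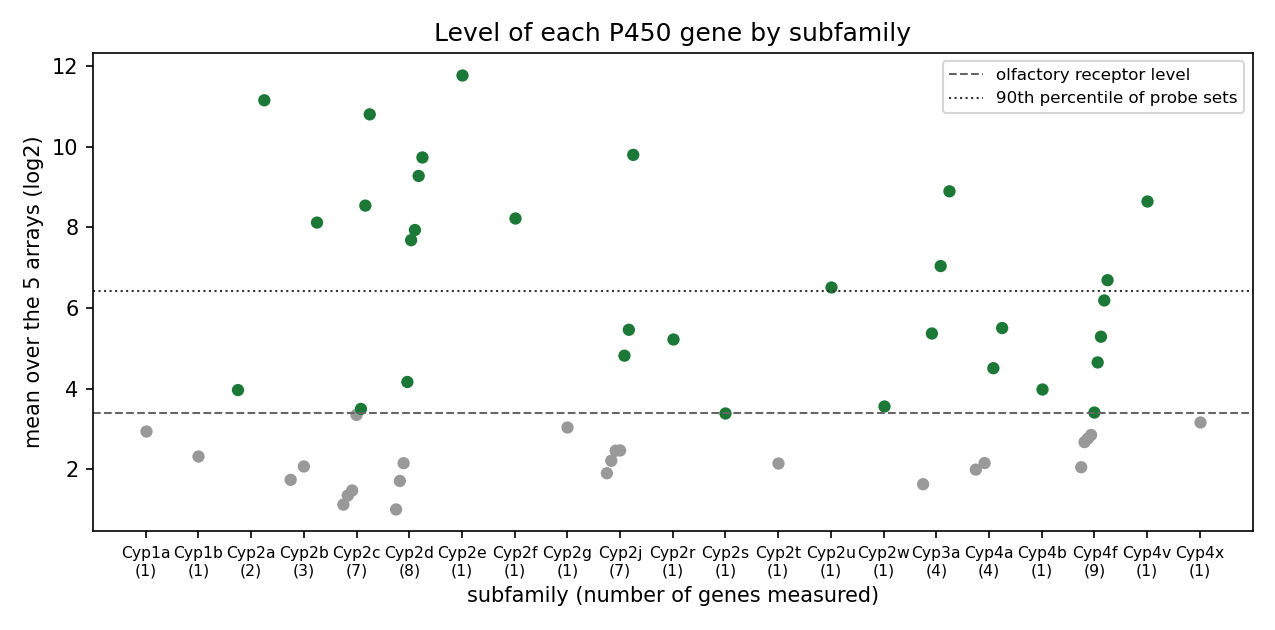
Mean deposited value over the 5 arrays (log2, vertical axis) of each of the 57 genes by subfamily (horizontal axis, number of genes in parentheses); green points lie above the olfactory receptor level (dashed line, 3.39), grey points at or below it, and the dotted line is the 90th percentile (6.42). Bright and dim genes stand side by side in most subfamilies with several genes, and the 2 family 1 genes are both grey.

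Genes of a subfamily differed widely in level. Among the 8 Cyp2d genes on chromosome 15, Cyp2d26 lay at percentile 99.4, Cyp2d13 at 99.1, Cyp2d22 at 97.2 and Cyp2d10 at 96.5. Cyp2d11, which stands between Cyp2d22 and Cyp2d10 in the annotation, lay at percentile 0.603. Cyp2d40 read 4.17 on all 5 arrays. The same values stood in 6 other tested probe sets, so its level is uncertain, and the reason was not tested. Among the 7 Cyp2j genes, which follow each other on chromosome 4, Cyp2j5 lay at percentile 99.4, its neighbours Cyp2j9 and Cyp2j6 at 71.1 and 80.0, and the other 4 below the level. On chromosome 7, Cyp2a12 and Cyp2f2 are adjacent and both bright, while Cyp2t4, next to Cyp2f2, lay at percentile 18.2. The 7 Cyp2c genes held 2 bright members, Cyp2c70 and Cyp2c23, and 4 below the level.

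The AHR targets Cyp1a1 and Cyp1b1, which oxidise polycyclic compounds, lay below the level. Cyp1a1 averaged 2.96 in LRRK2-GS and 2.94 in LRRK2-WT cells, and Cyp1b1 averaged 2.32 in LRRK2-GS and 2.34 in LRRK2-WT cells. Cyp4x1, a gene known from brain, averaged 3.16 in LRRK2-GS and 3.20 in LRRK2-WT cells and was also below the level. The 25 members at or below the level had differences between -0.21 (Cyp2c55) and 0.23 (Cyp2d34), 15 positive and 10 negative, and a median LRRK2-GS range of 0.18. At this signal no difference could be read above the background of the array.

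No member was called between the genotypes. A call needed an adjusted p of at most 0.05 and a change over 1.5-fold in limma, and it was met by 0 of the 57 members and by 0% of the 23396 tested probe sets. The smallest adjusted p of a member was 0.826 in limma. Unadjusted p-values under 0.05 were found for 1 member, Cyp2a12, and for 2.09% of all tested probe sets. The methods' t-test called 0 members after adjustment and gave 1 unadjusted p under 0.05. Of the members, 28 had a positive difference, 28 a negative one and 1 was equal, with a median of 0.00, as over all tested probe sets (0.00). For the 32 members above the olfactory receptor level the counts were 13 positive and 18 negative, with a median of -0.06. Cyp2s1 and Cyp4f16, both positive, passed the level through their LRRK2-GS values while their LRRK2-WT means lay under it, and over the 30 members with both means above the level the counts were 11 positive and 18 negative.

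Over 1.5-fold higher in LRRK2-GS cells was 1 member, Cyp2u1, against 0.457% of all tested probe sets, and over 1.5-fold lower was 1 member, Cyp4f15, against 0.500%. Cyp2u1, which hydroxylates long-chain fatty acids and is known from brain, read 6.53, 6.55 and 7.53 on the LRRK2-GS arrays and 5.89 and 6.05 on the LRRK2-WT arrays. All LRRK2-GS values lay above both LRRK2-WT values. The difference was 0.90 with a 95% interval of -0.23 to 2.04 (limma adjusted p = 0.826), and it was 0.575, under 1.5-fold (0.585), without LRRK2-GS array 3. Cyp4f15, a fatty acid and eicosanoid hydroxylase, read 5.70, 5.93 and 7.41 on the LRRK2-GS arrays and 7.42 and 6.98 on the LRRK2-WT arrays. Its LRRK2-GS array 3 lay between the LRRK2-WT values and the other LRRK2-GS arrays lay below both. The difference was -0.86 with an interval of -2.74 to 1.03 (limma adjusted p = 0.826), and leaving out LRRK2-GS arrays in turn gave values between -1.39 (without array 3) and -0.53 (without array 1).

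In 5 members the lowest LRRK2-GS array exceeded the higher LRRK2-WT array, which held for 3.76% of all tested probe sets. In 1 member the order was turned round, with the highest LRRK2-GS array under the lower LRRK2-WT array, which held for 3.74% of all. The 5 were Cyp2a12, Cyp2d26, Cyp2j5, Cyp2u1 and Cyp4v3, and all were among the 32 members above the olfactory receptor level. Over the 12649 probe sets above that level, 3.36% were separated upwards. The member separated downwards was Cyp2c55, whose mean was under the level. So 0 of the 32 were separated downwards, against 5.45% of the 12649.

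Cyp2a12 read 11.39, 11.22 and 11.29 on the LRRK2-GS arrays and 10.82 and 11.01 on the LRRK2-WT arrays. Its LRRK2-GS arrays lay close together and above both LRRK2-WT arrays, and the difference was 0.38 with an interval of 0.13 to 0.63. Cyp2j5 read 9.85, 9.85 and 10.21 on the LRRK2-GS arrays and 9.66 and 9.39 on the LRRK2-WT arrays, a difference of 0.45 (-0.04 to 0.94). Here too the groups did not overlap. Cyp4v3, the mouse gene of a fatty acid hydroxylase whose human counterpart is mutated in a crystalline retinal dystrophy, read 8.55, 8.51 and 9.29 on the LRRK2-GS arrays and 8.47 and 8.39 on the LRRK2-WT arrays. Its difference of 0.35 (-0.52 to 1.23) was 0.10 without LRRK2-GS array 3. Cyp2d26 differed by 0.12 (-0.08 to 0.32), with LRRK2-GS arrays at 9.74, 9.88 and 9.71 and LRRK2-WT arrays at 9.62 and 9.69. The limma adjusted p was 0.826 for each of these 4 genes.

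**Figure D2:**
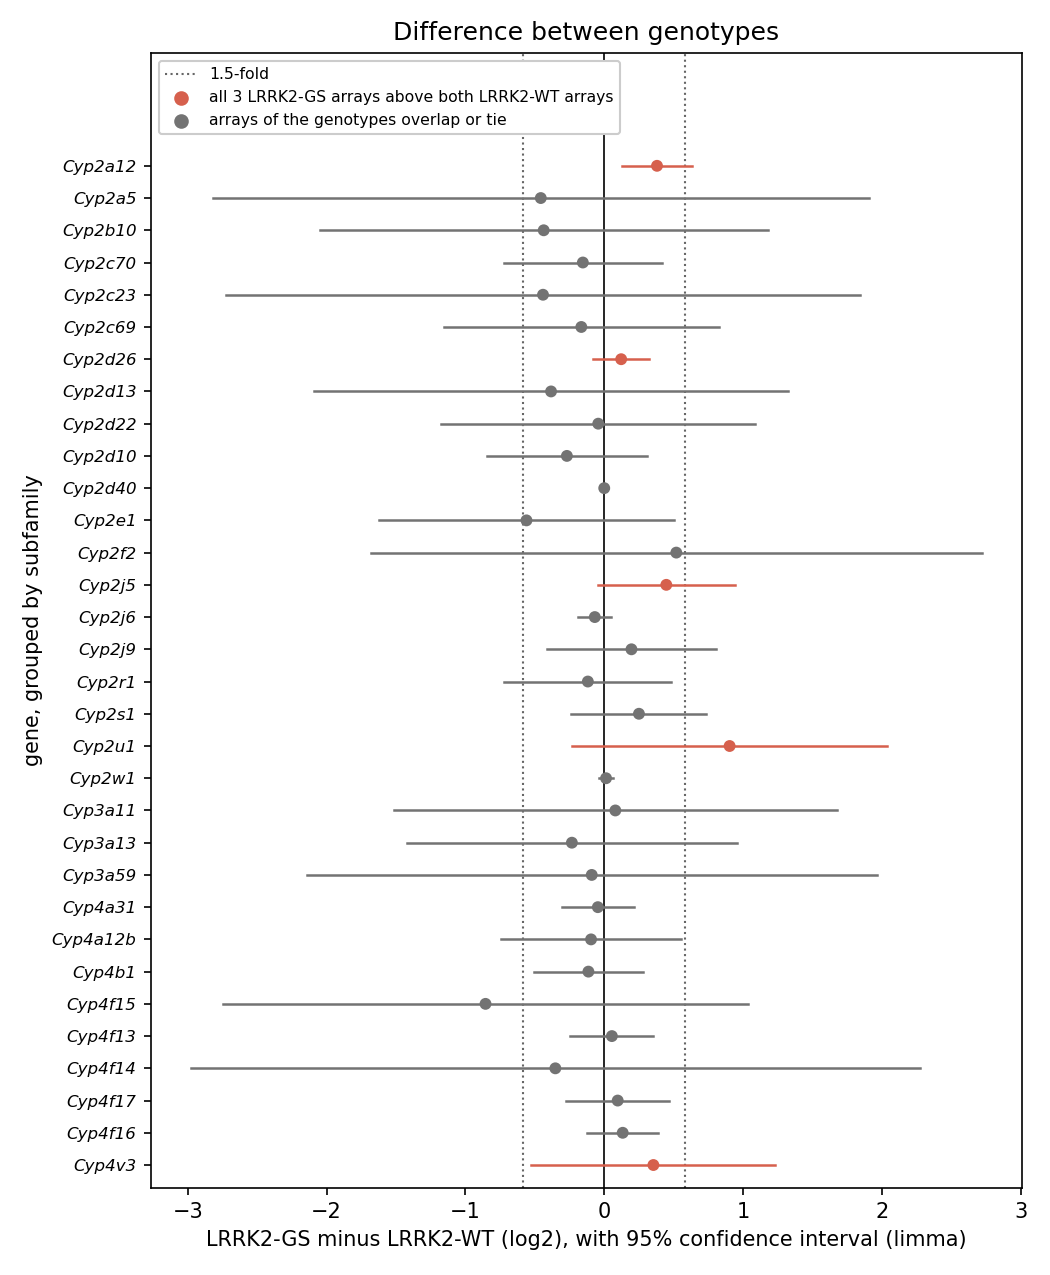
Difference LRRK2-GS minus LRRK2-WT (log2, horizontal axis) with its 95% confidence interval from limma (lines) for the 32 members above the olfactory receptor level, grouped by subfamily; red marks the 5 genes whose LRRK2-GS arrays all lay above both LRRK2-WT arrays, grey the others, and dotted lines mark 1.5-fold. Of the intervals, that of Cyp2a12 (0.13 to 0.63) lies clear of 0.

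The members spread widely between the LRRK2-GS arrays. For the 13 members above the 90th percentile on every array, the median range (highest minus lowest) was 1.05 over the 3 LRRK2-GS arrays and 0.12 over the 2 LRRK2-WT arrays. Over all 1948 probe sets as bright, it was 0.30 over the LRRK2-GS arrays and 0.10 over the LRRK2-WT arrays. A range over 3 arrays is larger by construction than a range over 2. A LRRK2-GS range over 1 was found in 12 of the 32 members above the olfactory receptor level (37.5%) and in 3.42% of all probe sets above it. This pattern was noticed in the values and is a description.

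The spread had a common order. LRRK2-GS array 1 was the lowest and LRRK2-GS array 3 the highest of the LRRK2-GS arrays in 15 of the 32 members (46.9%), against 10.3% of the 12649 probe sets above the level. Probe sets with a tie between LRRK2-GS arrays were not counted as showing the order, and without them the counts were 15 of 26 members (57.7%) and 1309 of 7402 probe sets (17.7%). Array 1 was lowest in 17 of the 32 and array 3 highest in 20. Over the 12649 probe sets, array 1 was lowest in 2396 and array 3 highest in 2319. Many members are related copies, so here too they are not independent of each other. Among the 13 bright members, the median deviation from the mean of the LRRK2-WT arrays was -0.46 on LRRK2-GS array 1, -0.11 on array 2 and 0.52 on array 3. For the 11 hepatocyte markers it was -0.07, -0.04 and -0.06 on the same arrays, and 2 of them, Tat and Tdo2, had the common order (18.2%). Array 3 was the highest LRRK2-GS array in 6 of the 11, and it exceeded array 1 by 0.75 in Tdo2 and 0.59 in Cps1. The opposite order, with array 1 highest and array 3 lowest, was found in 2 of the 11 hepatocyte markers (Hnf4a, Apoa1). It was also found in 2 of 6 macrophage markers (Marco, Cd5l) and 2 of 6 markers of sinusoidal endothelium (Lyve1, Pecam1). Of the 12649 probe sets above the level, 1696 had this opposite order, and of the 32 members 1 did. Lyve1 read 5.96, 5.03 and 4.32 on the LRRK2-GS arrays and 4.71 and 4.92 on the LRRK2-WT arrays, and Marco read 6.74, 5.82 and 5.34 on the LRRK2-GS arrays and 5.74 and 6.06 on the LRRK2-WT arrays. The part of these cell types in the order was not tested. Over the whole table, LRRK2-GS arrays 1 and 3 had the same median, 3.28.

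**Figure D3:**
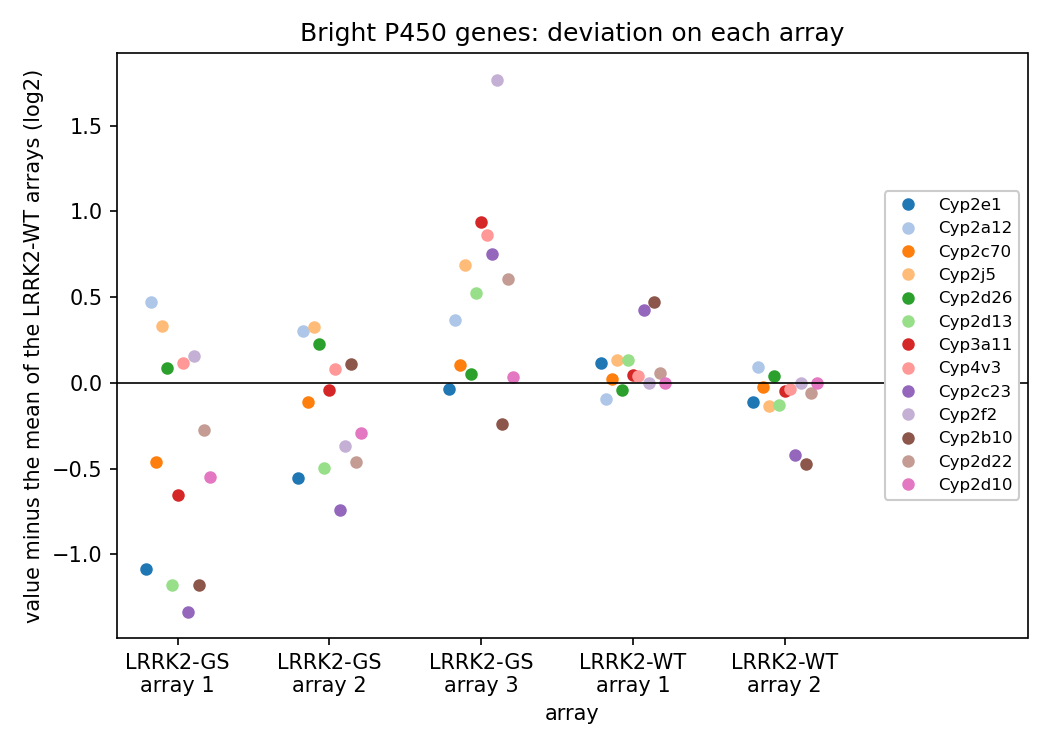
Deposited value minus the mean of both LRRK2-WT arrays (log2, vertical axis) on each array (horizontal axis) for the 13 members above the 90th percentile on every array, one colour per gene. The median is -0.46 on LRRK2-GS array 1, -0.11 on LRRK2-GS array 2 and 0.52 on LRRK2-GS array 3, while the LRRK2-WT arrays of a gene lie at most 0.94 apart (Cyp2b10).

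Cyp2e1 read 11.03, 11.56 and 12.08 on the LRRK2-GS arrays and 12.23 and 12.002 on the LRRK2-WT arrays. The lower LRRK2-GS arrays lay under both LRRK2-WT arrays and the highest lay between them, with a difference of -0.56 (-1.62 to 0.50). Leaving out LRRK2-GS array 3 gave -0.82 and leaving out array 1 gave -0.30. Cyp3a11, the main drug-oxidising P450 of mouse liver and a target of PXR, read 8.19, 8.80 and 9.78 on the LRRK2-GS arrays and 8.89 and 8.79 on the LRRK2-WT arrays. Its LRRK2-GS values enclosed the LRRK2-WT values, with a difference of 0.08 (-1.51 to 1.68) that was -0.35 without LRRK2-GS array 3. Cyp2c70 read 10.43, 10.78 and 11.00 on the LRRK2-GS arrays and 10.91 and 10.87 on the LRRK2-WT arrays, a difference of -0.15 (-0.72 to 0.41). It was -0.001 without LRRK2-GS array 1 and -0.28 without array 3.

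The same order was wider in genes named here after their values were seen. Cyp2d13 read 8.32, 9.01 and 10.02 on the LRRK2-GS arrays and 9.63 and 9.37 on the LRRK2-WT arrays. Cyp2c23, whose rat counterpart is an arachidonic acid epoxygenase, read 7.47, 8.06 and 9.55 on the LRRK2-GS arrays and 9.22 and 8.38 on the LRRK2-WT arrays. Cyp2a5, which oxidises coumarin and nicotine, read 2.67, 3.66 and 5.02 on the LRRK2-GS arrays and 4.43 and 4.05 on the LRRK2-WT arrays. In all 3 the LRRK2-GS arrays spanned both LRRK2-WT arrays, and LRRK2-GS array 3 stood above array 1 by 1.70 in Cyp2d13 and 2.08 in Cyp2c23. In Cyp2a5 array 1 lay below the olfactory receptor level, so its gap has no exact size. The gap was 2.04 in Cyp3a59 and 1.71 in Cyp4f15.

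**Figure D4:**
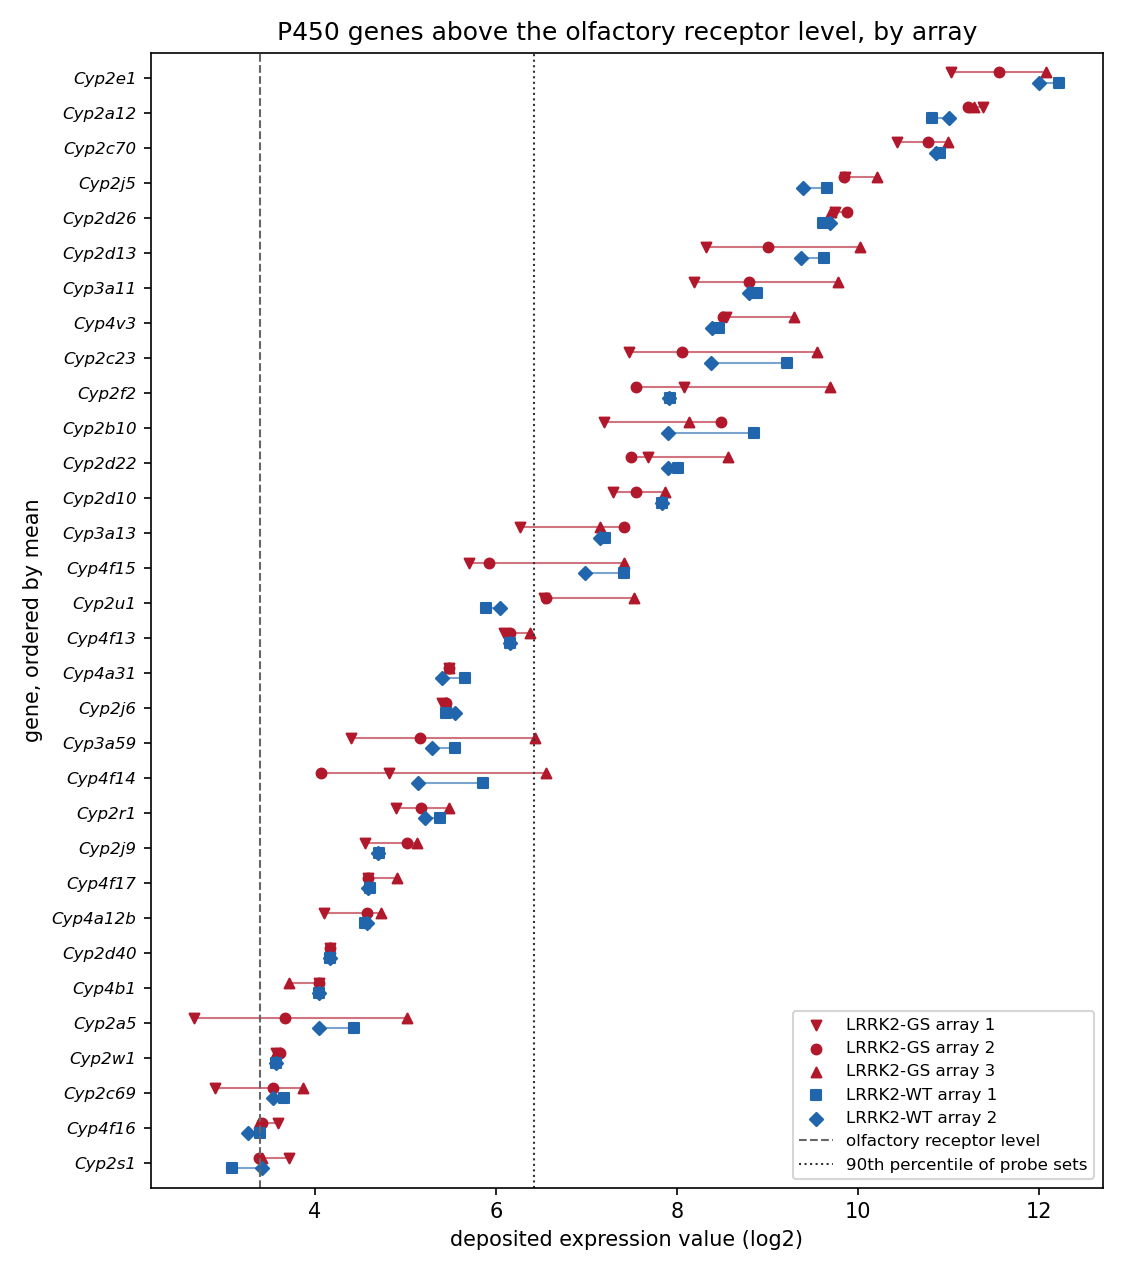
Deposited value (log2, horizontal axis) of the 32 members above the olfactory receptor level on each array, LRRK2-GS in red (3 arrays) above LRRK2-WT in blue (2 arrays) for each gene, with a line from the lowest to the highest array of a genotype; the dashed line is the olfactory receptor level (3.39) and the dotted line the 90th percentile (6.42). Cyp2c23, Cyp2d13, Cyp3a11 and Cyp2a5 show wide red lines with array 1 at the low end and array 3 at the high end, and Cyp2a12 and Cyp2d26 narrow ones.

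By subfamily, the differences were small beside this spread. The 3 Cyp2c members above the level were all lower in LRRK2-GS cells, at -0.15 (Cyp2c70), -0.44 (Cyp2c23) and -0.17 (Cyp2c69), and all 3 had LRRK2-GS array 1 lowest and array 3 highest. Their shared direction rested on LRRK2-GS array 1, since without it Cyp2c70 was at -0.001 and Cyp2c69 at 0.11. The median over all 7 Cyp2c genes was -0.15, but 0.095 without LRRK2-GS array 1. That of the 4 Cyp3a genes was -0.13, but 0.24 without the same array. The 3 Cyp2b genes had a median of -0.20, which was 0.04 without LRRK2-WT array 1. The medians of the 8 Cyp2d genes and the 9 Cyp4f genes were both 0.04, and both were 0.004 without LRRK2-GS array 3. The 7 Cyp2j genes had a median of 0.08 and the 4 Cyp4a genes -0.03. The LRRK2-GS range of the 3 Cyp3a genes above the level had a median of 1.60, that of the 5 Cyp2d genes 0.58, that of the 5 Cyp4f genes 0.32 and that of the 3 Cyp2j genes 0.36.

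Targets of CAR and PXR, the receptors for foreign compounds, were measured for 4 of 7 listed genes. Cyp2b10, the classical target of CAR, read 7.20, 8.49 and 8.14 on the LRRK2-GS arrays and 8.85 and 7.91 on the LRRK2-WT arrays. The groups overlapped, and the difference of -0.44 (-2.05 to 1.18) was 0.04 without LRRK2-WT array 1. Cyp2c55 and Cyp2c29 lay below the olfactory receptor level. Of 4 listed PPAR-alpha targets, Cyp4a31, a fatty acid hydroxylase gene, was measured, with a difference of -0.05 and the same value, 5.48, on all LRRK2-GS arrays.

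Listed as higher in male mouse liver were 4 genes, of which 2 were measured, Cyp2u1 (0.90) and Cyp4a12b (-0.09). Of 14 listed as higher in female liver, 3 were measured, and all had negative differences, Cyp2b10 (-0.44), Cyp2c69 (-0.17) and Cyp2g1 (-0.09). In these 3 the arrays of the genotypes overlapped. Cyp2g1, best known from olfactory mucosa, lay below the level.

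Cyp2f2, which activates naphthalene in airway cells and is also known from liver, had the widest LRRK2-GS range among the 13 bright members, 2.14. It read 8.08, 7.55 and 9.69 on the LRRK2-GS arrays and 7.92 on both LRRK2-WT arrays. LRRK2-GS array 3 stood far above the rest, and the difference of 0.52 (-1.68 to 2.72) was -0.11 without it. Its second probe set was dimmer, at 5.06, 5.001 and 5.95 on the LRRK2-GS arrays and 5.05 and 5.06 on the LRRK2-WT arrays, with LRRK2-GS array 3 again the highest. Cyp2r1, a vitamin D hydroxylase gene, averaged 5.18 ± 0.29 (SD, n = 3) in LRRK2-GS and 5.30 ± 0.12 (SD, n = 2) in LRRK2-WT cells, and Cyp2s1, Cyp2w1 and Cyp4b1 lay near the olfactory receptor level. Cyp2s1 passed it through its LRRK2-GS arrays, with a mean of 3.50 in LRRK2-GS and 3.25 in LRRK2-WT cells. Cyp3a13, a member of the steroid-oxidising Cyp3a subfamily, read 6.27, 7.41 and 7.15 on the LRRK2-GS arrays and 7.20 and 7.15 on the LRRK2-WT arrays, with LRRK2-GS array 1 again the lowest. Cyp4f14, which hydroxylates leukotrienes, had the widest LRRK2-GS range of all members, with 4.82, 4.06 and 6.56 on the LRRK2-GS arrays and 5.85 and 5.14 on the LRRK2-WT arrays.

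Of 29 listed genes that serve P450 enzymes, 26 were measured, with 12 positive and 14 negative differences, and 0 were called in limma. Of the 10 genes of haem synthesis and breakdown, 9 were positive, but the median difference over the 10 was small, at 0.065. Fech, which inserts iron into the ring, was lower at -0.32 (limma adjusted p = 0.826). Of the 12 receptors and liver factors, 10 were negative, among them the PPAR-alpha gene Ppara (-0.51), the liver factor gene Cebpa (-0.46) and the CAR gene Nr1i3 (-0.40). In these 3 the arrays of the genotypes overlapped or tied. Over the 12649 probe sets above the level, 5587 differences were positive and 6311 negative. Over the 1948 bright probe sets, 779 were positive and 1155 negative. Of the redox partners, the cytochrome b5 gene Cyb5a differed by -0.47. All LRRK2-GS arrays lay below both LRRK2-WT arrays in 4 of the 26 (Ahr, Rxra, Nr1i2 and Fech), and above both in 0. Of the probe sets above the level, 5.45% lay below in this way. The share was higher among bright probe sets, at 207 of the 1948 above the 90th percentile on every array. Of the 26 genes, 15 were as bright, among them Ahr, Rxra and Fech. In 8 of the 26 LRRK2-GS array 1 was the lowest and array 3 the highest (30.8%).

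Alas1, the rate-limiting enzyme of haem synthesis, was among these 8. It read 7.41, 7.97 and 8.87 on the LRRK2-GS arrays and 8.20 and 7.93 on the LRRK2-WT arrays, a difference of 0.02 (-1.46 to 1.51). Nr1i3 read 7.23, 7.29 and 8.29 on the LRRK2-GS arrays and 8.16 and 7.84 on the LRRK2-WT arrays. Both repeated the order seen in Cyp3a11 and Cyp2c23. Hmox1, which breaks haem down, ran the opposite way over the LRRK2-GS arrays, at 6.11, 5.46 and 4.93, with both LRRK2-WT arrays at 5.46. Ahr, the receptor gene behind Cyp1a1 and Cyp1b1, read 6.84, 6.69 and 6.84 on the LRRK2-GS arrays and 7.15 and 7.06 on the LRRK2-WT arrays. Its arrays did not overlap, with a difference of -0.32 (-0.51 to -0.12) and a limma adjusted p of 0.826.

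P450 genes of other families were set beside the members. Of 16 such genes, which work mostly on sterols, bile acids and vitamins, 8 lay above the olfactory receptor level, and LRRK2-GS array 1 was lowest and array 3 highest in 1 of them. Whether this share differs from the 15 of 32 members was not tested. The largest differences among all P450 genes measured were found here, with Cyp7b1, an oxysterol hydroxylase gene, at 1.54 and Cyp39a1 at -1.05. Cyp7b1 read 6.47, 6.11 and 8.54 on the LRRK2-GS arrays and 5.77 and 5.24 on the LRRK2-WT arrays. The limma adjusted p was 0.826 for both.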

How the data were processed

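RNA of tunicamycin-treated cells was hybridised to 5 Affymetrix GeneChip Mouse arrays (3 LRRK2-GS, 2 LRRK2-WT), grouped by the genotype in the sample labels. The authors exported the arrays with Affymetrix Command Console software and deposited log2 expression values for 33640 probe sets. Background correction, probe summary and array normalization were not given in the sources used here, and a filter or smoothing by the authors would alter the spread between arrays. Values were used as deposited. Of the probe sets 23396 paired with 1 gene symbol in the platform annotation, 1812 with several and 8432 with none. By gene ID 23203 of the tested ones were found in RefSeq for GRCm38.p6, and 0 symbols changed. The same value stood on at least 2 arrays in 28 of the 57 members and in 77.8% of tested probe sets.

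limma 3.58.1 in R 4.3.3 was fitted to all tested probe sets (lmFit and eBayes, no covariate), with two-sided p-values and Benjamini-Hochberg adjustment over all of them. The prior degrees of freedom were 0.595, so each gene's spread rests mostly on its own arrays. The steps were tested on simulated data. The members, gene lists and tests were chosen with earlier results of these data known. Named were members over 1.5-fold, separated members above the background with a difference over 0.3, the brightest member of each subfamily, members of the lists, and, of the genes that serve P450 enzymes, those with the largest differences. Other genes named were chosen after their values were seen. Alternatives were array weights, a trended and robust prior, the methods' t-test, cyclic loess, quantile normalization, dropping dim probe sets, averaging the probe sets of a gene, the replicate number as a block, and omission of each array.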

Additional observations from a re-analysis of the deposited data

How the results depend on the processing

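No alternative run called a member (adjusted p up to 0.05 with a change over 1.5-fold). Without LRRK2-WT array 1 or array 2, 1 array stands for that genotype and is assumed to vary like the others. No adjusted p of these runs is therefore read as a result. Cyp4a31, with the same value on all LRRK2-GS arrays, was at 0.083 without LRRK2-WT array 1 and at -0.176 without LRRK2-WT array 2. Quantile normalization gave 2 members over 1.5-fold lower and a Cyp2b median of -0.23, cyclic loess a Cyp2b median of -0.21 and array weights -0.30. With dim probe sets filtered, the medians were -0.44 for Cyp2b, 0.20 for Cyp2j and -0.071 for Cyp4a, over the fewer genes left. When each array was left out in turn, the members over 1.5-fold numbered 0 to 2 higher and 0 to 7 lower, with 7 lower and 0 higher without LRRK2-GS array 3 and 6 lower without LRRK2-WT array 2. Members separated between genotypes numbered 10 to 20, as fewer arrays separate more easily. The shares of all tested probe sets under the same omissions are not given here. The counts of separated members and of members over 1.5-fold are thus no result about P450 genes. The Cyp2b median was -0.305 to 0.036, the Cyp2c median -0.178 to 0.095, the Cyp3a median -0.343 to 0.24 and the Cyp4a median -0.054 to 0.052. The sign turned for 4 genes without LRRK2-GS array 1, with values over all omissions of -0.383 to 0.105 for Cyp2c69, -0.265 to 0.027 for Cyp2r1, -0.224 to 0.089 for Cyp4a12b and -0.133 to 0.065 for Cyp4x1. It turned without LRRK2-GS array 3 for Cyp1a1 (-0.027 to 0.063), Cyp2f2 (-0.105 to 0.963) and Cyp3a11 (-0.35 to 0.448). It turned without LRRK2-WT array 1 for Cyp2b10 (-0.907 to 0.036), Cyp2c29 (-0.044 to 0.397) and Cyp4a31 (-0.176 to 0.083). For the other changes the cause was not tested.

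The labels number the arrays but do not say that a number pairs them, and deviations from the group means correlated at -0.17 for number 1 and 0.13 for number 2. The replicate block, which drops LRRK2-GS array 3, called 0 members, with 0 over 1.5-fold higher and 7 lower, a Cyp2b median of -0.305, and Cyp1a1 at -0.027, Cyp2f2 at -0.105 and Cyp3a11 at -0.35, the same values as without that array. Signal over background limits the 25 members at or below the olfactory receptor level, for which a difference could not be read.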

Other observations

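P450 probe sets that carry several symbols cannot be assigned to a gene and were not counted among the members. The probe set shared by Cyp4a10 and Cyp4a31 read 9.53, 11.04 and 9.84 on the LRRK2-GS arrays and 9.26 and 9.97 on the LRRK2-WT arrays, a difference of 0.52. LRRK2-GS array 2 was the highest, while array 3 was the highest LRRK2-GS array in 10 of the 13 bright members. The probe set of Cyp2c67 and Cyp2c68 read 8.67, 8.16 and 9.60 on the LRRK2-GS arrays and 8.38 and 8.15 on the LRRK2-WT arrays. Its LRRK2-GS array 3 stood above the rest, and the difference was 0.55. The second probe set of Cyp2c55 lay under the olfactory receptor level, with 1.95, 2.42 and 3.27 on the LRRK2-GS arrays and 3.45 and 2.57 on the LRRK2-WT arrays.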
